A study of Mus musculus with 16 samples.

Results

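The genes described here are the calcium release and reuptake genes of skeletal muscle, measured in gastrocnemius of 16 male C57BL/6N mice on 2-colour Agilent arrays. They are 10 genes named by symbol (Ryr1, Cacna1s, Casq1, Casq2, Sln, Pln, Pvalb, Trdn, Atp2a1 and Atp2a2), and every non-control probe carrying one of these symbols was taken, which gave 21 of the 41174 probes on the array. Of these, 18 probes from 9 genes passed the filter on dim signal (19398 probes passed in all), and the single probe of Pln did not. All mice were 3 months old when they were placed on a corn oil-based high-fat diet (cHF, about 35% lipid by weight) with rosiglitazone at 10 mg per kg diet, an insulin-sensitising drug, which they ate for 8 weeks. In the cHF+ROSI group (n = 8) nothing else was added, and in the cHF+F+ROSI group (n = 8) a concentrate of n-3 LC-PUFA, the long-chain fatty acids of fish oil, replaced 15% of the dietary lipids. Every mouse was then fasted for 10 h during the light phase, re-fed Chow overnight and killed in the morning, so that neither group was an untreated control and the arrays address only what n-3 LC-PUFA added to rosiglitazone in re-fed muscle. Each value is a log2 ratio of 1 mouse (Cy5) to a common reference pool (Cy3), which the labels of these arrays describe as RNA of all diets, a higher rosiglitazone dose among them. Dyes were not swapped.

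When a motor nerve fires, Cacna1s, the voltage sensor of the transverse tubule, opens Ryr1, the calcium release channel of the sarcoplasmic reticulum, and the released calcium starts contraction. Trdn (triadin) ties the channel to calsequestrin, the protein that holds calcium in the store, which is mainly Casq1 in fast fibres and also Casq2 in slow fibres and heart. Relaxation needs the calcium pumps SERCA1 (Atp2a1, fast fibres) and SERCA2 (Atp2a2, slow fibres and heart), which Sln (sarcolipin) and Pln (phospholamban) inhibit, and fast fibres also hold Pvalb (parvalbumin), a soluble calcium buffer. Gastrocnemius of the mouse is mostly fast, with a smaller slow part.

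The promoters of Casq2, Casq1, Atp2a1 and Pln are shown because they stand for the fast and the slow side of the set, the calsequestrin pair and, for reuptake, the fast pump and an inhibitor. RefSeq on GRCm38.p6 gave a promoter for 7 of the 10 genes, and the 3 without an entry in the table used here were Atp2a2, Sln and Trdn. The 250 bases before the start are printed 5′ to 3′ on the gene's strand, with each E-box (CANNTG, the same on both strands), the site of muscle regulatory factors among others, in capitals. They lie at chr3:102086165-102086414 (plus strand, Casq2), chr1:172219896-172220145 (minus strand, Casq1), chr7:126463074-126463323 (minus strand, Atp2a1) and chr10:53337436-53337685 (plus strand, Pln).
Casq2: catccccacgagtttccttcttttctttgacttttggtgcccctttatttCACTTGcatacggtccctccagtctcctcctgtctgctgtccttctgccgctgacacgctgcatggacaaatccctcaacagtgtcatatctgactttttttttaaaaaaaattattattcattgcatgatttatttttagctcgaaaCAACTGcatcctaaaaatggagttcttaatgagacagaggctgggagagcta
Casq1: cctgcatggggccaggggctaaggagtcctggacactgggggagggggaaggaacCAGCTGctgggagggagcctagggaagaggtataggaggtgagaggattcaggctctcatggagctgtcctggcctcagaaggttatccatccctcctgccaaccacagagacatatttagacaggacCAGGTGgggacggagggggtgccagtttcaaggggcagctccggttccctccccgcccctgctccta
Atp2a1: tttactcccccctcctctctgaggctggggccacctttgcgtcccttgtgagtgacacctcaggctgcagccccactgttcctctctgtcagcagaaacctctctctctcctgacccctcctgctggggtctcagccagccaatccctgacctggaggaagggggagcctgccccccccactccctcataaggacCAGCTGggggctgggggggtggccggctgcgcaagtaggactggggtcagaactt
Pln: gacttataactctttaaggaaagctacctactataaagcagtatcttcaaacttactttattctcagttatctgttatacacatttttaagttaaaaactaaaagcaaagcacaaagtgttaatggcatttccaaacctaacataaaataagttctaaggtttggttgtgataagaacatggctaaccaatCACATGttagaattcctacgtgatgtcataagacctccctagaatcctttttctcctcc
Casq2 and Casq1 each held 2 E-boxes, and Atp2a1 and Pln each held 1. An E-box was present in 66.2% of the 32851 promoters of this length in the table, so these matches describe the letters only. The NFAT core GGAAA, read on either strand, occurred 1 time before Casq2 and 2 times before Pln and was not in the windows of Casq1 or Atp2a1, and 55.6% of all promoters held it. A MEF2 site, searched only in the strict form CTA, 4 bases of A or T, then TAG, was in none of the 4 windows. That form was in 0.508% of all promoters. Looser forms of the MEF2 site were not searched, so these windows may hold such a form.

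Some features of the arrays bear on these values. On each of the 4 slides, cHF+ROSI and cHF+F+ROSI mice lay at different fixed positions, 2 of each, so that position and diet cannot be told apart. The cHF+ROSI replicate 1 array was dim (median Cy5 signal 2.33 times its background, against 2.98 to 3.64 on the other arrays). The background correction was also set by a few stray spots: between 5 and 19 of 45018 spots had a signal more than 50 units below their local background on cHF+ROSI replicates 1 and 5 and cHF+F+ROSI replicates 2, 3 and 5, and there the fit added a constant that drew weak ratios towards 0. The median absolute log2 ratio was 0.0276, 0.0589 and 0.0783 on cHF+ROSI replicates 1 and 5 and cHF+F+ROSI replicate 5, against 0.198 to 0.246 on the other 13 arrays. With the correction fitted without those spots it was 0.162, 0.211 and 0.224. The repaired correction, chosen after the data were seen, is given beside each member probe above the filter whose value changed by more than 0.1 in a mouse. Markers of the labelled tissue (Acta1, Ckm, Mb and Des) were well above background on all 16 arrays, and none of the 4 differed between diets at an unadjusted p of 0.05.

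Sln was the member with the clearest difference between the diets, and it did not hold after adjustment. None of the 9 members that passed the filter reached a Benjamini-Hochberg adjusted p of 0.05 in limma, where 0.0155% of all probes did (0.0825% with the repaired correction). At an unadjusted p of 0.05, 1 member passed, Sln, which was lower in cHF+F+ROSI mice. Over all probes 7.46% passed at that limit, 3.96% lower and 3.5% higher (10.3% in all and 4.97% lower with the repaired correction, where Sln was again the single member to pass). The median log2 fold change, cHF+F+ROSI minus cHF+ROSI, was -0.19 over the 3 slow isoforms that passed (Casq2, Atp2a2 and Sln), -0.06 over the 3 fast ones (Casq1, Atp2a1 and Pvalb) and -0.0014 over all probes. The order of slow and fast was not stable: the slow and fast medians were -0.04 and -0.12 with array weights, and 0.01 and -0.03 without cHF+F+ROSI replicate 2. With scale normalization between arrays the slow median stayed below the fast one, at -0.61 and 0.02. Of the 9 members 6 were lower, as were 9854 of the 19398 probes. With the unfiltered value of Pln the slow median was -0.15. The groups overlapped for every member probe, and over all probes 0.0773% did not overlap.

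**Figure D1:**
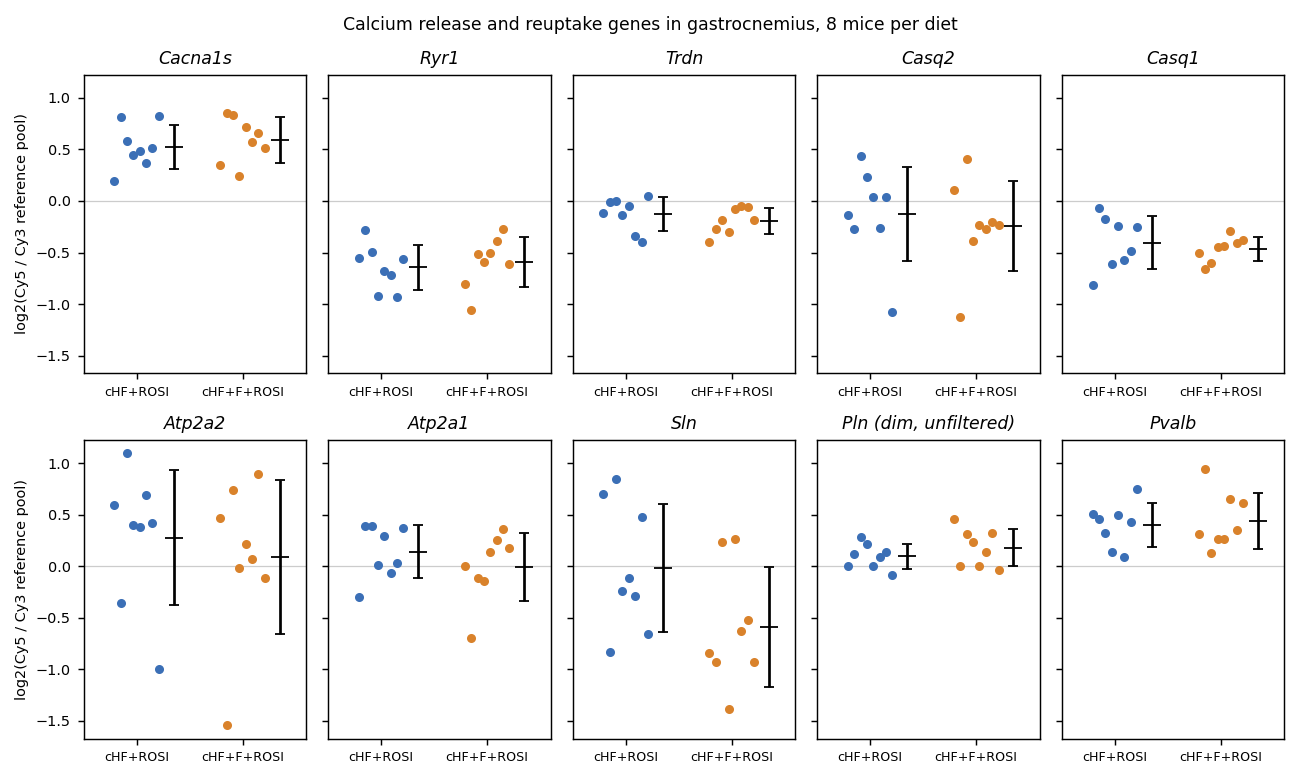
Log2 ratio to the reference pool (y axis) of each mouse, by diet, for the brightest probe of each member that passed the filter and for Pln without it; black bars are mean ± SD (n = 8). The groups overlap in all 10 panels, and Casq2, Atp2a2 and Sln have the widest spread between mice.

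Sln, the small membrane peptide that slows the SERCA pumps, showed the lead difference. Its probe (positions of probes are on mm8, chr9:53651904-53651963, plus strand) gave log2 ratios from -0.83 to 0.85 in cHF+ROSI mice (median -0.18) and from -1.38 to 0.27 in cHF+F+ROSI mice (median -0.74). In the latter, 4 of 8 mice lay below every cHF+ROSI mouse and 2, replicates 3 and 5, lay well above the other six, at 0.24 and 0.27. The mean was -0.01 ± 0.62 (SD, n = 8) in cHF+ROSI mice and -0.59 ± 0.58 (SD, n = 8) in cHF+F+ROSI mice. The log2 fold change was -0.58, 1.49-fold lower (SE 0.27, 95% interval -1.14 to -0.01), with limma p = 0.0477, adjusted p = 0.666 and a two-sided exact permutation p = 0.0775. The value thus passed 0.05 by limma before adjustment, and neither after it nor by the exact test. On the repaired correction the difference was -0.60 (SE 0.28, limma p = 0.0494, adjusted p = 0.482, exact permutation p = 0.0813), with cHF+ROSI replicate 1 moving from 0.70 to 0.94.

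Within the slides, which hold 2 mice of each diet, the Sln mean was lower in cHF+F+ROSI on all 4, by log2 differences of -0.28, -0.86, -0.37 and -0.79. With slide as a block the limma p rose from 0.0477 to 0.0629 (adjusted p = 0.715), above 0.05, and the exact permutation p without the block was 0.0775. Leaving out 1 mouse at a time kept the sign, with values from -0.70 to -0.45, and the limma p lay between 0.0168 and 0.105. It was above 0.05 without any 1 of cHF+ROSI replicates 1, 3, 5 and 7 or cHF+F+ROSI replicates 1, 2, 4, 6, 7 and 8, that is, for 10 of the 16 mice. A second Sln probe at chr9:53652292-53652351 was not well above background on any array in either channel and gives no second reading.

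**Figure D2:**
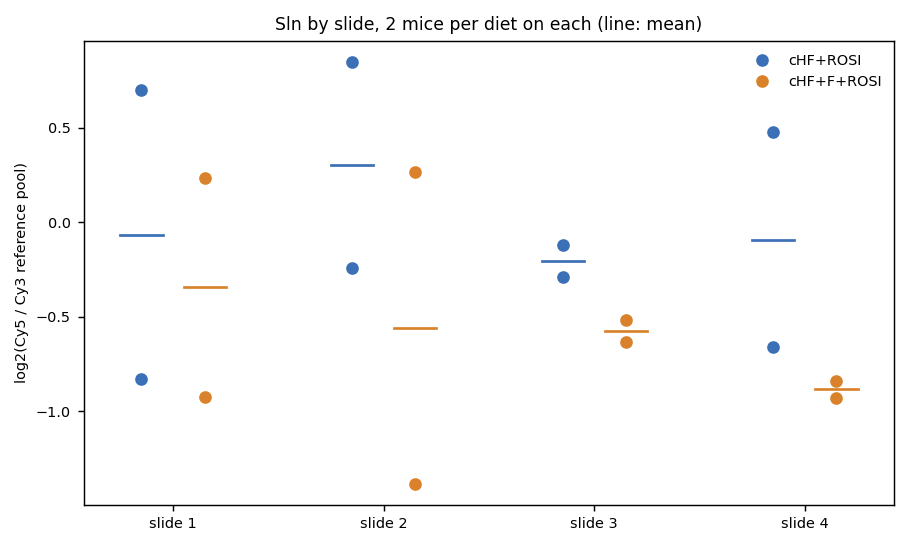
Sln log2 ratio to the reference pool (y axis) of each mouse on each of the 4 slides, with a line at the mean of the 2 mice of a diet. The cHF+F+ROSI mean is the lower one on every slide, and on slides 1, 2 and 4 the 2 cHF+ROSI mice lie far apart.

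Pln, the other pump inhibitor and a gene of slow fibres and heart, was near the detection limit. Its probe (chr10:53033553-53033612, plus strand) was well above background in Cy5 on 15 of 16 arrays but in the Cy3 pool on 3, where its median signal was 1.73 times background, under the limit of 2. Without the filter the log2 ratios ran from -0.09 to 0.28 in cHF+ROSI mice (median 0.11) and from -0.03 to 0.46 in cHF+F+ROSI mice (median 0.19). The difference was 0.08 (SE 0.07, 95% interval -0.07 to 0.24, exact permutation p = 0.285). The repaired correction moved single mice by up to 0.24 and gave 0.09 (exact permutation p = 0.253). No difference larger than the spread between mice was seen for Pln, at a signal near the detection limit.

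The pumps did not differ by diet beyond the spread between mice. For Atp2a2 the brightest of 4 probes (chr5:122714312-122714371, minus strand) ran from -1.0 to 1.09 in cHF+ROSI mice (median 0.41) and from -1.54 to 0.89 in cHF+F+ROSI mice (median 0.14). The low ends were cHF+ROSI replicate 8 and cHF+F+ROSI replicate 2, and the other mice of both diets overlapped widely. The difference was -0.19 (SE 0.32, 95% interval -0.86 to 0.48, limma p = 0.558, exact permutation p = 0.604). It was 0.04 without cHF+F+ROSI replicate 2 and -0.37 without cHF+ROSI replicate 8.

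The other Atp2a2 probes did not all follow the brightest one. The probe at chr5:122721268-122721327 went with it over the 16 mice (Pearson r = 0.972, a description of probes on the same arrays), with a diet difference of -0.06 (SE 0.25), or -0.10 (SE 0.28) on the repaired correction. The probe at chr5:122717458-122717517 was weak, went with it less (r = 0.465) and differed by 0.10 (SE 0.11). Its lowest values were in cHF+ROSI replicates 1 and 5 and cHF+F+ROSI replicate 5 (0.03, 0.05 and 0.06), the arrays on which weak ratios were drawn towards 0, and on the repaired correction these mice stood at 0.43, 0.38 and 0.36 and the difference was 0.07. The 4th probe, at chr5:122757362-122757421, was not well above background on any array.

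Atp2a1, the fast pump, was read by 2 bright probes on the minus strand. At chr7:126237732-126238075 the log2 ratios ran from -0.29 to 0.39 in cHF+ROSI mice (median 0.16) and from -0.70 to 0.36 in cHF+F+ROSI mice (median 0.07), a difference of -0.15 (SE 0.14, 95% interval -0.43 to 0.14, exact permutation p = 0.356). The second probe (chr7:126239337-126239396) differed by -0.06 (SE 0.18, exact permutation p = 0.787). Both probes put cHF+F+ROSI replicate 2 lowest of its group, at -0.70 and -1.11, and cHF+ROSI replicate 1, the dim array, lowest of the other, at -0.29 and -0.74, and they went together over the 16 mice (r = 0.948). Without cHF+F+ROSI replicate 2 the Atp2a1 differences were -0.05 at the first probe and 0.08 at the second.

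Among the storage proteins, Casq2 again had a wide spread. Its probe (chr3:102274965-102275025, plus strand) ran from -1.08 to 0.43 in cHF+ROSI mice (median -0.05) and from -1.12 to 0.41 in cHF+F+ROSI mice (median -0.24). The lowest mouse of each group, cHF+ROSI replicate 8 and cHF+F+ROSI replicate 2, was the same as for Atp2a2. The difference was -0.12 (SE 0.20, 95% interval -0.54 to 0.31, exact permutation p = 0.596), with 0.01 without cHF+F+ROSI replicate 2 and -0.25 without cHF+ROSI replicate 8. On the repaired correction it was -0.12, with changes of up to 0.25 in a mouse.

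Casq1, the main calsequestrin of fast fibres, varied less (chr1:174047146-174048649, minus strand). Its log2 ratios ran from -0.81 to -0.07 in cHF+ROSI mice (median -0.37) and from -0.66 to -0.30 in cHF+F+ROSI mice (median -0.44), a difference of -0.06 (SE 0.09, 95% interval -0.26 to 0.14, exact permutation p = 0.552). The cHF+F+ROSI mice all lay inside the range of the cHF+ROSI mice, whose lowest value came from the dim array.

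In the release apparatus, too, no difference was larger than the spread between mice. Cacna1s at its bright probe (chr1:137935854-137935913, plus strand) ran from 0.19 to 0.83 in cHF+ROSI mice (median 0.49) and from 0.24 to 0.85 in cHF+F+ROSI mice (median 0.61), a difference of 0.06 (SE 0.10, 95% interval -0.15 to 0.28, exact permutation p = 0.555). A weaker Cacna1s probe (chr1:137915100-137917068) differed the other way, by -0.15 (SE 0.14) and by -0.07 (SE 0.16) on the repaired correction, which moved 1 mouse by 0.64. The 2 probes hardly went together over the mice (r = 0.149).

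Ryr1 at its brightest probe (chr7:28713559-28714265, minus strand) ran from -0.93 to -0.29 in cHF+ROSI mice (median -0.62) and from -1.05 to -0.27 in cHF+F+ROSI mice (median -0.55). The difference was 0.05 (SE 0.11, 95% interval -0.18 to 0.28, exact permutation p = 0.661). A second bright probe (chr7:28712530-28713228) differed by 0.11 (SE 0.09, exact permutation p = 0.291) and went with the first (r = 0.905). A further, weak one (chr7:28731374-28731433) differed by 0.05 (SE 0.05), or 0.04 on the repaired correction, and did not go with the first (r = -0.198).

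Trdn was read by 4 probes that fell into 2 pairs along the gene. The brightest (chr10:32889591-32889650, plus strand) ran from -0.40 to 0.05 in cHF+ROSI mice (median -0.08) and from -0.40 to -0.05 in cHF+F+ROSI mice (median -0.19), a difference of -0.07 (SE 0.07, 95% interval -0.22 to 0.08, exact permutation p = 0.366). The other upstream probe (chr10:32828640-32828699) gave the same difference of -0.07 (SE 0.09). The 2 downstream probes gave 0.18 (SE 0.10, limma p = 0.0743, adjusted p = 0.705, exact permutation p = 0.0765) at chr10:33154010-33157589 and 0.09 (SE 0.09) at chr10:33165588-33165647.

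Over the 16 mice, Trdn probes of one end went together with r of 0.834 and 0.877, and probes of different ends with r between 0.265 and 0.440. No test of the difference between the ends was made. The ends also differed in brightness. The median Cy5 signal was 2948 and 1522 times background at the upstream probes, and 92.6 and 470 times at the downstream ones. The downstream probes also share a transcript record that the upstream ones do not carry. Position along the gene, brightness and transcript record cannot be told apart here. The lowest mouse at both downstream probes was cHF+ROSI replicate 1, the dim array, at -0.09 and 0.13, while the other cHF+ROSI mice lay between 0.33 and 0.92. Without that mouse the first downstream probe differed by 0.10 (SE 0.07). On the repaired correction, with all mice, it differed by 0.21 (SE 0.11, exact permutation p = 0.0797).

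Pvalb, the calcium buffer of fast fibres (chr15:78018472-78018531, minus strand), ran from 0.09 to 0.74 in cHF+ROSI mice (median 0.44) and from 0.13 to 0.95 in cHF+F+ROSI mice (median 0.33). The highest mouse of each group was the one with the lowest Casq2 and Atp2a2, replicate 8 of cHF+ROSI and replicate 2 of cHF+F+ROSI. The difference between diets was 0.04 (SE 0.11, 95% interval -0.20 to 0.28, exact permutation p = 0.736).

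**Figure D3:**
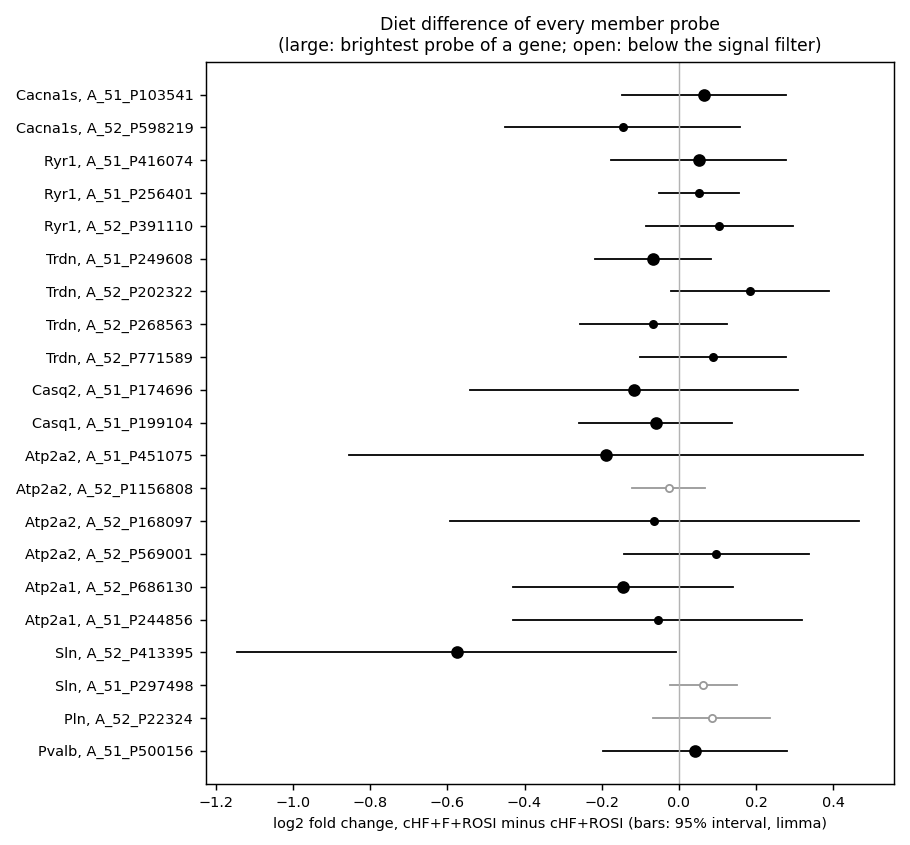
Log2 fold change between the diets (x axis) of all 21 member probes with its 95% interval from limma; large points are the brightest probe of a gene and open points are the 3 probes below the signal filter. The interval of the Sln probe, -1.14 to -0.01, is the only one that leaves out 0.

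A list of 39 other calcium handling genes gave a like picture. Of these, 35 had a probe that passed the filter. None reached an adjusted p of 0.05, 1 passed an unadjusted p of 0.05 upwards and 0 downwards, against 3.5% and 3.96% of all probes, and 15 of the 35 were lower. The one that passed was Atp2b3, a calcium pump of the plasma membrane, which was 0.19 higher on the log2 scale (SE 0.06, limma p = 0.00853, adjusted p = 0.486, exact permutation p = 0.0118). Tmem38b, a potassium channel of the sarcoplasmic reticulum that balances charge during release, was 0.19 higher (SE 0.10, limma p = 0.0703, exact permutation p = 0.0828). On the repaired correction it was 0.19 higher with an SE of 0.08 and passed the unadjusted limit as well (limma adjusted p = 0.403).

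By role, the medians were -0.10 for the 4 other genes of the voltage sensor, 0.02 for 7 release channel genes and partners, 0.06 for 8 genes of the junction between tubule and store, 0.11 for 5 luminal proteins, 0.0009 for 2 reuptake genes and -0.01 for 9 genes of the plasma membrane and mitochondria. The lowest of the 35 was Stac3, which helps the voltage sensor reach the membrane, at -0.16 (SE 0.10), and the highest was Tmem38b. Next in size were Ryr3, a further release channel, at 0.15 (SE 0.11), and Homer1, a scaffold protein, at 0.15 (SE 0.08), and neither passed the unadjusted limit.

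**Figure D4:**
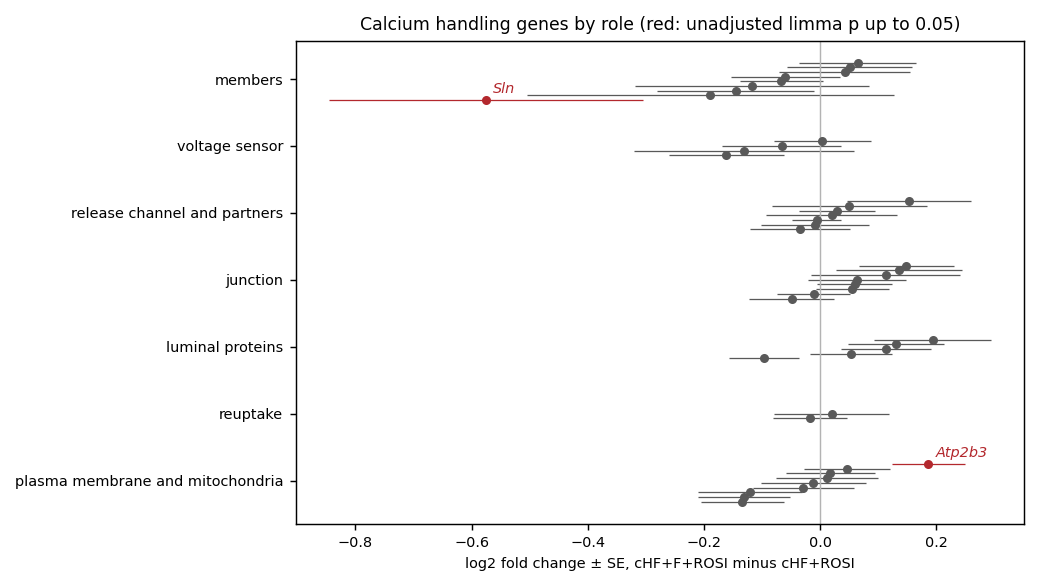
Log2 fold change between the diets (x axis, ± SE) for the brightest probe of each of the 9 members and of 35 other calcium handling genes, grouped by role; red marks an unadjusted limma p of up to 0.05. Sln at -0.58 and Atp2b3 at 0.19 are the red points, and the other genes lie between -0.19 and 0.19.

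The slow isoforms varied widely from mouse to mouse. The SD within groups was 0.70 for Atp2a2, 0.60 for Sln and 0.45 for Casq2, at the 99.4, 99 and 97.6 percentile of all probes, whose median SD was 0.137, while Trdn (0.15) was near that median. The Trdn probe was far brighter (median Cy5 signal 2948 times background, against 214, 66.7 and 53.1 times). The part of brightness in this contrast was not tested. The spread of the slow isoforms was set beside 7 slow fibre contractile genes (Myh7, Myl2, Myl3, Tnnt1, Tnni1, Tnnc1 and Tpm3). Their mean log2 ratio ran from -1.25 to 0.62 in cHF+ROSI mice (median -0.17) and from -2.17 to 0.23 in cHF+F+ROSI mice (median -0.41). Of the 7, 6 were lower in cHF+F+ROSI mice, with a median of -0.43 and 0 past an unadjusted p of 0.05, and cHF+F+ROSI replicate 2 stood apart as the lowest mouse. In bulk muscle, fewer slow fibres and less RNA per fibre cannot be told apart, and the part of this variation in the Sln difference was not tested.

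Atp2a2 followed the slow fibre genes most closely. Over the 16 mice its Pearson r with their mean was 0.952 and its Spearman rho 0.906 (both permutation p = 1e-05, the smallest the permutations can give, adjusted p = 1e-04 over the 10 relations). Without the 2 mice farthest from the median, cHF+F+ROSI replicate 2 and cHF+ROSI replicate 3, r was 0.894, and within the groups it was 0.941 for the cHF+ROSI mice and 0.972 for those given n-3 LC-PUFA. The relation thus held in each diet and without the extreme mice.

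Casq2 and Sln went the same way. Casq2 had r = 0.815 (permutation p = 0.00025, adjusted p = 0.00125) and rho = 0.682 (permutation p = 0.00453, adjusted p = 0.0151). Its r was 0.633 without the 2 extreme mice, 0.70 within cHF+ROSI and 0.925 within cHF+F+ROSI. With the repaired correction its r was 0.791 (permutation p = 0.00044, adjusted p = 0.0022). Its rho there was 0.588 (permutation p = 0.0191, adjusted p = 0.0637), no longer past 0.05 after adjustment. Sln had r = 0.680 (permutation p = 0.00237, adjusted p = 0.00592) and rho = 0.809 (permutation p = 0.00025, adjusted p = 0.00125), with r = 0.660 without the extreme mice, 0.797 within cHF+ROSI and 0.523 within cHF+F+ROSI. Pln, unfiltered, gave r = 0.394 (permutation p = 0.132, adjusted p = 0.219), and r = 0.510 (permutation p = 0.0432, adjusted p = 0.0864) on the repaired correction.

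Of the fast genes, Pvalb ran against the slow fibre mean, with r = -0.717 (permutation p = 0.00165, adjusted p = 0.0055) and rho = -0.500 (permutation p = 0.0519, adjusted p = 0.130), and r was -0.551 without the 2 extreme mice. Atp2a1 had r = 0.347 (permutation p = 0.183, adjusted p = 0.229) and Casq1 r = -0.02 (permutation p = 0.942, adjusted p = 0.955), but without the extreme mice these became -0.581 and -0.664. Without those 2 mice all 3 fast genes ran against the slow fibre mean, and the all-mouse values of Atp2a1 and Casq1 rested on them. No p was computed for the values without those mice. Trdn (r = -0.408), Cacna1s (r = -0.305) and Ryr1 (r = -0.085) were negative there as well, so the sign was not particular to the fast genes. Within cHF+ROSI and within cHF+F+ROSI, r was -0.415 and 0.77 for Atp2a1 and -0.335 and 0.409 for Casq1. For Pvalb it was -0.533 and -0.849. cHF+F+ROSI replicate 2 was the lowest of its group in Atp2a1, in Casq1 and in the slow fibre mean. Cacna1s (r = -0.415), Ryr1 (r = 0.368) and Trdn (r = 0.016) did not pass, with adjusted permutation p of 0.217, 0.229 and 0.955.

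**Figure D5:**
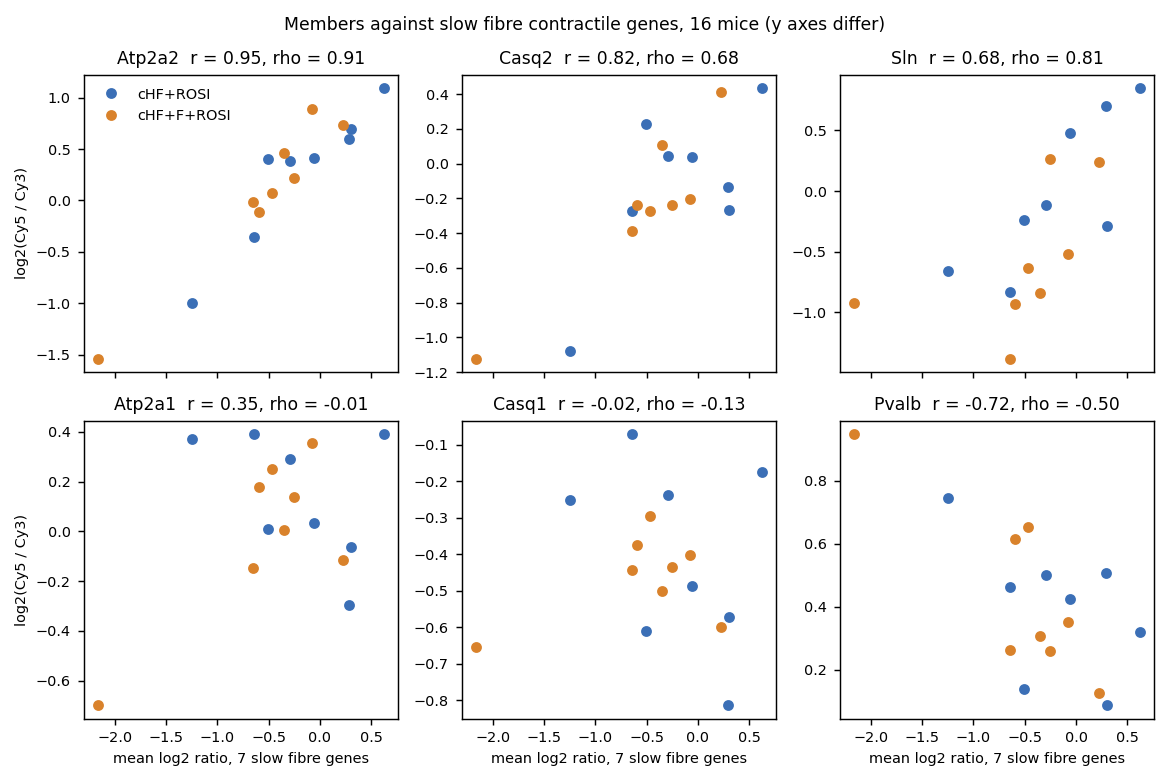
Log2 ratio of 6 members (y axes, which differ) against the mean log2 ratio of 7 slow fibre contractile genes (x axis) in 16 mice, coloured by diet, with Pearson r and Spearman rho. Atp2a2, Casq2 and Sln rise with the slow fibre mean and Pvalb falls, and the mouse at the far left, cHF+F+ROSI replicate 2, is also the lowest in Atp2a1.

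Markers of other fibres and cells were also set beside the members. The fast contractile genes (8 of 8 measured) had means from 0.32 to 0.69 in mice without n-3 LC-PUFA and from 0.27 to 0.62 with it, smooth muscle genes (4 of 4) from -0.27 to 0.09 and from -0.25 to 0.17, and red blood cell genes (3 of 3) from -0.78 to -0.08 and from -0.74 to 1.19. Adipocyte genes (4 of 4) spread widely, from -1.01 to 0.47 and from -1.46 to 1.09. By gene, 5 of 8 fast contractile genes were lower in cHF+F+ROSI mice (median -0.07) and 1 of 4 smooth muscle genes (median 0.05). Of the 3 red blood cell genes 0 were lower (median 0.19), and of the 4 adipocyte genes 1 was (median 0.38). Of the genes listed as cardiac markers, Nppa, Myl7 and Tnni3 did not pass the filter. Myh6 did, at a difference of -0.39, and the study counts Myh6 among the slow fibre genes of muscle. No gene of these lists passed an unadjusted p of 0.05, and their part in the members' values was not tested.

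Over the 16 mice, the genes most alike to each member among 13505 others, by Pearson r of the log2 ratios on shared arrays, included slow contractile genes for Atp2a2 and Casq2. Atp2a2 was most like Tnnt1 (slow troponin T, r = 0.953) and Myh7 (slow myosin heavy chain, r = 0.927), and Casq2 was most like Myl2 (slow myosin light chain, r = 0.875) and Myom3 (r = 0.860). Sln was most like Wdr51a (r = 0.851), Slc31a1 (a copper transporter, r = 0.848) and 2310033P09Rik (a clone name, r = 0.830). Atp2a1 was most like Ctbp1 (r = 0.946), Mlf2 (r = 0.916) and Zfp91 (r = 0.913), Casq1 like Upf2 (r = 0.880), Zfp106 (r = 0.880) and Rhot1 (r = 0.875), and Pvalb like Cmbl (r = 0.841), Slc37a4 (r = 0.836) and Metap2 (r = 0.811). Cacna1s was most like Gstm3 (r = 0.906), Rtn2 (r = 0.900) and Calm3 (a calmodulin gene, r = 0.863), Ryr1 like Klhl24 (r = 0.912), 2810407C02Rik (r = 0.888) and Wnk2 (r = 0.858), and Trdn like Satb1 (r = 0.845), C530030K21Rik (r = 0.838) and a transcript without a symbol (r = 0.793). Next for both Atp2a2 (r = 0.918) and Casq2 (r = 0.854) was 1 probe without a gene symbol. All these r were picked as the highest of 13505 over only 16 mice, and none was tested.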

How the data were processed

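Gastrocnemius RNA of 16 mice (8 per diet, 1 array each) was labelled with Cy5 and hybridised with a Cy3 reference pool on Agilent arrays, scanned at 2 laser powers and read with Feature Extraction (10.5.1.1 in the file headers), with probe positions on mm8. The deposited intensity values are the authors' scanner output, in linear units and not normalized. The authors also deposited a normalized log2 table, made in GeneMaths XT, whose cHF+F+ROSI columns show only the group. From the scanner files, median signals were background-corrected (normexp, offset 50, in limma 3.58.1 on R 4.3.3), probes with a mean signal of at least 2 times background in both channels kept, outlier-flagged spots and controls left out, loess applied within arrays and spots of a probe averaged. Diets were compared with limma over all 19398 probes (Benjamini-Hochberg) and, for single members, with a two-sided exact permutation test, whose smallest p is 0.000155. Correlations used 100000 permutations. The brightest probe that passed the filter stood for a gene. Named genes were all members, other calcium genes past an unadjusted p of 0.05 and the 5 of their list with the largest absolute log2 fold change, and the 3 most alike genes of each member. Arrays hold no read depth, and their number, 8 per diet, limits the precision. No pair of arrays held identical values. Alternatives were other background corrections and normalizations, the Cy5 channel alone, the authors' table, other filters, slide and replicate blocks, the methods' t-test, array weights, probe means and leaving out each array. The members and gene lists were chosen with earlier results of these data known.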

Additional observations from a re-analysis of the deposited data

Results flagged for a closer look

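Dixon's rule marks a mouse whose gap to the next of its group of 8 is large against the group's range. It was applied to 60 sets of 8 values, where chance alone marks about 3, and it marked 7. In cHF+ROSI, replicate 8 was low in Casq2 (-1.08, next -0.27), and replicate 1 had the dim array (median Cy5 signal 2.33 times background, next 3.02).

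Of the other 5 marks, 4 were on cHF+F+ROSI replicate 2. It was low in the brightest Atp2a2 probe (-1.54, next -0.11), in the second Atp2a1 probe (-1.11, next -0.26), in the mean of the 4 skeletal muscle markers (-0.90, next -0.37) and in the mean of the 7 slow fibre genes (-2.17, next -0.65). cHF+F+ROSI replicate 6 was high in the mean of the 3 red blood cell genes (1.19, next 0.06).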

How the results depend on the processing

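No member reached an adjusted p of 0.05 under any of the 15 alternatives to which a test applied or without any 1 array, and Sln was lower in all of them, by -0.81 to -0.44 (limma p from 0.0091 to 0.161, 7 of 15 at or under 0.05; the methods' t-test included) and by -0.70 to -0.45 without 1 array. Sln did not pass an unadjusted 0.05, so that 0 members passed, with no background correction, Feature Extraction processed signals, scale normalization, Cy5 alone, the authors' table, the slide block, the methods' t-test and array weights. Without 1 array, 0 to 1 members passed. The number of probes past an adjusted 0.05, 3 as reported, was 16 with the repaired background fit (added after seeing the data), 14 without correction, 19 with processed signals, 1 with median centring, 0 with scale normalization, 8 with Cy5 alone, 10 with the authors' table, 10 with array weights and 3 to 5 without 1 array. Probes past an unadjusted 0.05 fell from 1447 to 820 with median centring and to 956 with scale normalization, and numbered 1178 to 1979 without 1 array. Other calcium genes past an unadjusted 0.05, 1 as reported, numbered 0 with median centring, 3 without correction, 2 with the repaired fit, processed signals, scale normalization, the authors' table, array weights and probe means, and 1 to 4 without 1 array. The slow median was 0.45 within slide 4 and -0.37 to 0.01 without 1 array, and the fast median was 0.19 within slide 3 and -0.12 to -0.01 without 1 array. Signs of differences near 0 turned under scale normalization (Cacna1s -0.075, Trdn 0.023, Casq1 0.47, Atp2a1 0.020, Pvalb -0.39), Cy5 alone (Ryr1 -0.024, Trdn 0.0046, Casq1 0.033, Pvalb -0.051), the authors' table (Trdn 0.018, Casq1 0.017), array weights (Atp2a2 0.046) and probe means (Cacna1s -0.041, Trdn 0.035). Without 1 array, Pvalb ran from -0.030 to 0.091, Casq2 from -0.25 to 0.0087 and Atp2a2 from -0.37 to 0.044, each turned by leaving out cHF+F+ROSI replicate 2, and Pvalb also without cHF+ROSI replicate 6 (-0.0021). The causes were not tested.

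Whether the replicate numbers pair the mice cannot be told from these values. Over all probes, deviations of same-numbered mice correlated with r from -0.338 to 0.727, and 2 arrays were most like their own number. The r of 0.727 was that of replicate 5. Both arrays of that number were among those on which the background fit drew weak ratios towards 0. The part of that fit in this r was not tested. With the replicate block, the limma p of Sln went from 0.0477 to 0.0091 (adjusted p = 0.564), beside the exact permutation p of 0.0775 without the block. The SE fell from 0.27 to 0.18 for Sln, from 0.32 to 0.19 for Atp2a2 and from 0.20 to 0.15 for Casq2. It also fell for Cacna1s and Pvalb, and it rose for Ryr1, Trdn, Casq1 and Atp2a1. Under that block 0 probes passed an adjusted 0.05 and 3 other calcium genes an unadjusted 0.05. Weak signals limit Pln and the dim probes of Sln and Atp2a2.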

Other observations

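The Cy3 channel carried the same pool on every array. Quantile-normalised between arrays after the planned background correction, the Cy3 signal of the 21 member probes differed between the arrays of the diets by log2 values from -0.09 to 0.08. For Sln the Cy3 difference was 0.02 (exact permutation p = 0.611), beside -0.58 for its ratio. For Casq1 it was 0.08 (exact permutation p = 0.0499), the lowest p of the 21 before any adjustment, beside -0.06 for its ratio.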
